A study of Mus musculus with 16 samples.

Results

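The genes described here are 8 genes of thermogenic (brown and beige) fat, chosen by symbol for their known roles in that tissue, by a rule that sets no limit on measured values: *Ucp1*, *Dio2*, *Elovl3*, *Cidea*, *Prdm16*, *Ppargc1a*, *Ppargc1b* and *Adrb3*. Of the 8, 7 were found in the probe annotation, each with 1 transcript cluster, out of 19505 genes with a cluster of a single symbol. *Adrb3* was not analysed here. Of the 7, 5 lay at or below the median of the control probe sets on most arrays. With all arrays in the fit, 5 did not pass the thresholds of p and fold together in any comparison. *Elovl3* and *Cidea* each passed the thresholds of p and fold in at least 1 comparison. Each of those calls was lost when some single array was left out. The fold changes moved most with 1 array for *Elovl3* and another for *Cidea*. *Ppargc1a* varied more between the pups of a group than between the groups.

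The arrays measured RNA of the epididymal fat pad, a visceral white depot, of male C57BL/6 mice (substrain NCrSlc in the study's methods; Clariom S mouse arrays, 1 array per pup, 16 in all). UN-RG pups were born to dams held to 60% of the energy intake of NN dams and were nursed in litters of 4, whereas NN pups came from dams fed freely and were nursed in litters of 8. All pups received a high-fat diet (60% lipids) from 9 wks, and between 11 and 16.5 wks either TU (tauroursodeoxycholic acid, a bile acid that eases endoplasmic reticulum stress, at 0.5 g/kg a day by mouth) or the vehicle, water (Veh). The groups were UN-RG-TU, UN-RG-Veh, NN-TU and NN-Veh, with 4 pups each, sampled at 16.5 wks. Undernourishment before birth and the small litter always came together, so that their parts cannot be told apart, and the labels do not say which pups shared a dam.

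Brown adipocytes, and the beige adipocytes that can appear within white depots, burn fuel to make heat. Noradrenaline from sympathetic nerves acts on beta-adrenergic receptors, cAMP rises, and transcription factors of the CREB family act through the cAMP response element. The uncoupling protein *Ucp1* then lets protons back into the mitochondrial matrix without ATP synthesis. *Dio2* makes active thyroid hormone within the cell, *Elovl3* elongates very long chain fatty acids, *Cidea* acts at lipid droplets, *Prdm16* is a coregulator of brown and beige identity, and *Ppargc1a* and *Ppargc1b* encode the coactivators PGC-1alpha and PGC-1beta that drive mitochondrial genes. Epididymal fat of mice is known as a depot that acquires few beige cells.

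The promoter windows of 3 of the genes are shown because they carry letters of the cAMP response element, through which the adrenergic signal reaches thermogenic genes. The motif TGACGTCA and its shorter form TGACG, which lies within it, were searched on both strands in the 250 bases before the start of each gene (RefSeq, build GRCm38.p6). Windows of 4 of the 8 genes were used here. Capitals mark the longer motif in *Dio2* and the shorter one, or its reverse complement CGTCA, in *Ppargc1a* and *Ucp1*. The windows are *Dio2* at chr12:90739039-90739288 (minus strand), *Ppargc1a* at chr5:51567726-51567975 (minus strand) and *Ucp1* at chr8:83290098-83290347 (plus strand).
Dio2: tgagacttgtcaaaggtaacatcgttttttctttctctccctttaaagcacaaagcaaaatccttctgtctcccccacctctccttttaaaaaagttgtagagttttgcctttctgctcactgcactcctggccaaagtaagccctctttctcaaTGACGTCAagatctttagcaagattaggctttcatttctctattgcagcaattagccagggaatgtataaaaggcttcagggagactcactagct
Ppargc1a: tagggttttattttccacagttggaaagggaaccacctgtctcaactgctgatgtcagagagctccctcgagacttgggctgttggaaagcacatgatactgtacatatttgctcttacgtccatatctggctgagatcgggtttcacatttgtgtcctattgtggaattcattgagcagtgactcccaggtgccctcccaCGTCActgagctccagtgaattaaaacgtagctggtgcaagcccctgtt
Ucp1: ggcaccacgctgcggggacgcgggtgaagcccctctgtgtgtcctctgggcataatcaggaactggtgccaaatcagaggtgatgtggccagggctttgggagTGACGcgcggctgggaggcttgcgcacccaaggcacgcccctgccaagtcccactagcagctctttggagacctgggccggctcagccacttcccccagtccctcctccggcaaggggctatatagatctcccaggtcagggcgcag
The longer motif begins 95 bases before the start in *Dio2*, and 508 of 32851 windows of the same length (1.55%) held it. The shorter one begins 49 bases before the start in *Ppargc1a* and 147 bases in *Ucp1*, and 5836 windows (17.8%) held it. The window of *Prdm16* held neither. These matches are letters in a sequence, and the arrays did not measure whether a factor was bound there.

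Levels are given as log2 of the deposited intensity. Over the 16 arrays the median level was 7.0 to 7.16, and arrays of a group correlated at 0.977 to 0.995. The arrays carry 220 control probe sets called antigenomic, whose letters occur nowhere in the mouse genome, and the median of these was 6.27 to 6.85, so that a level near or below it cannot be told from non-specific signal. In each group 1 array (UN-RG-TU 14, UN-RG-Veh 12, NN-TU 08 and NN-Veh 02) held transcripts of motile cilia, with a mean over 14 such markers of 7.35 to 8.72, against 5.60 to 6.00 on the other 12. Adipocyte markers had a mean over 13 genes of 16.16 to 16.58 over the arrays, and 11 markers of epididymis stayed at a mean of 4.96 to 5.52.

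*Ucp1* was dim in all pups and differed little. Its levels were 4.13, 4.32, 4.31 and 4.16 in UN-RG-TU pups, 4.23, 4.25, 4.64 and 4.05 in UN-RG-Veh pups, 3.95, 3.76, 4.26 and 4.19 in NN-TU pups and 4.22, 3.65, 4.21 and 4.61 in NN-Veh pups. All 4 groups overlapped, and *Ucp1* lay above the antigenomic median on 0 of 16 arrays; on average 6.14% of the antigenomic controls were dimmer. The group means ran in the order UN-RG-Veh (4.29 ± 0.25), UN-RG-TU (4.23 ± 0.10), NN-Veh (4.17 ± 0.40) and NN-TU (4.04 ± 0.23; SD, n = 4 each), and neighbours in that order differed by less than the SD of either. In the 4 pairwise comparisons the log2 fold change was −0.13 to 0.19 (SE 0.18), with unadjusted p-values of 0.309 to 0.733 (limma). The 95% intervals together ran over linear folds of 0.697 to 1.49, and non-specific signal at this brightness can hide a change of the transcript.

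*Dio2*, whose window holds the full motif, was also below the antigenomic median on all 16 arrays. Its mean was 5.22 ± 0.42 in UN-RG-TU pups, 5.29 ± 0.45 in UN-RG-Veh pups, 4.99 ± 0.48 in NN-TU pups and 5.43 ± 0.38 in NN-Veh pups, and single arrays ran from 4.52 to 5.81. The groups overlapped in all comparisons. The largest difference was that of NN-TU against NN-Veh, at −0.43 (SE 0.28, unadjusted p = 0.137), and without NN-TU 08 it was −0.63 (unadjusted p = 0.0362), past the thresholds.

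**Figure D1:**
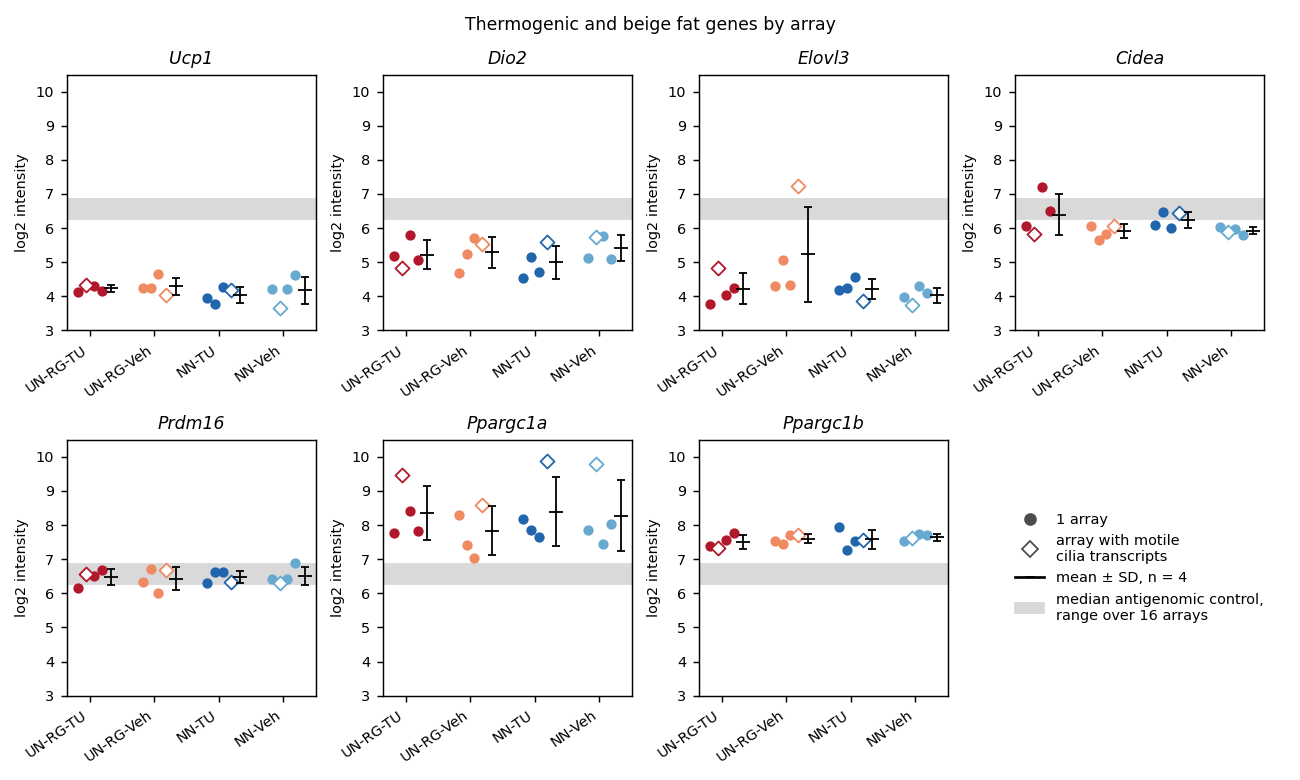
Log2 intensity of the 7 genes on each of 16 arrays, by group, with the mean and SD (n = 4) beside the points. Diamonds are the arrays with motile cilia transcripts and the grey band is the range of the antigenomic median (6.27 to 6.85). *Ucp1* and *Dio2* lie below the band on every array, *Ppargc1b* above it, and the highest *Ppargc1a* value of each group is a diamond.

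*Elovl3*, the fatty acid elongase, was the member with the largest differences between groups. Its levels were 3.76, 4.83, 4.03 and 4.23 in UN-RG-TU pups, 4.29, 5.05, 4.32 and 7.24 in UN-RG-Veh pups, 4.18, 4.24, 4.56 and 3.85 in NN-TU pups and 3.97, 3.74, 4.29 and 4.09 in NN-Veh pups. One array, UN-RG-Veh 12, stood far above all others, and only there did *Elovl3* exceed the antigenomic median. UN-RG-Veh pups exceeded NN-Veh pups by 1.20 on the log2 scale (SE 0.47, 95% interval 0.21 to 2.19, linear fold 2.30, unadjusted p = 0.0203, adjusted p = 0.729 from limma). No UN-RG-Veh array lay below an NN-Veh array, but the lowest UN-RG-Veh array exceeded the highest NN-Veh array by only 0.000882 on the log2 scale. Without UN-RG-Veh 12 the difference was 0.53 (unadjusted p = 0.0509). That array is also one of those with motile cilia transcripts, whose part in the result was not tested, and without all 4 such arrays the difference was 0.44 (unadjusted p = 0.0559).

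*Elovl3* in UN-RG-TU against UN-RG-Veh pups was lower by a log2 fold change of −1.01 (SE 0.47, interval −2.0 to −0.019, unadjusted p = 0.0462, adjusted p = 0.606), and the groups overlapped. Without UN-RG-Veh 12 the value was −0.34 (unadjusted p = 0.197), and without the 4 arrays with motile cilia transcripts −0.54 (unadjusted p = 0.0209). The call was also lost without UN-RG-Veh 10 (−1.07) or without UN-RG-TU 13, 15 or 16 (−0.86, −0.95 and −1.02), and under quantile normalization (−1.0, unadjusted p = 0.0515) or a robust prior (unadjusted p = 0.0719). In NN-TU against NN-Veh pups the fold change was 0.19 (unadjusted p = 0.693). The difference between the fold changes under TU of UN-RG and of NN pups (the interaction) was −1.20 (SE 0.66, unadjusted p = 0.0887, adjusted p = 0.9999), and it passed the thresholds without UN-RG-Veh 09 (−1.51) or 11 (−1.50), or without the 4 cilia arrays (−0.76, unadjusted p = 0.0230). Both comparisons share the UN-RG-Veh arrays, so that a single high array there moves them in opposite directions.

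*Cidea*, the lipid droplet protein of brown fat, was higher under TU in UN-RG pups. Its levels were 6.05, 5.83, 7.20 and 6.49 in UN-RG-TU pups, 6.07, 5.65, 5.83 and 6.07 in UN-RG-Veh pups, 6.08, 6.46, 6.01 and 6.44 in NN-TU pups and 6.04, 5.88, 5.98 and 5.80 in NN-Veh pups. UN-RG-TU 15 stood above the rest and was the only array on which *Cidea* exceeded the antigenomic median, and 2 of the 4 UN-RG-TU arrays lay within the range of UN-RG-Veh. The log2 fold change was 0.49 in UN-RG-TU against UN-RG-Veh pups (SE 0.23, interval 0.012 to 0.97, linear fold 1.41, unadjusted p = 0.0451, adjusted p = 0.60) and 0.32 in NN-TU against NN-Veh pups (unadjusted p = 0.176). Averaged over both nutrition groups, TU against Veh gave 0.41 (SE 0.16, unadjusted p = 0.0219, adjusted p = 0.379). Without UN-RG-TU 15 the first of these was 0.22 (unadjusted p = 0.216) and the average 0.27, under the fold threshold. The call in UN-RG pups was also lost without UN-RG-Veh 10 (0.41) or 11 (0.47) or without UN-RG-TU 16 (0.46), and that of the average without NN-TU 06 (0.37), NN-TU 08 (0.37) or UN-RG-Veh 10 (0.36). Without the 4 cilia arrays the fold change in UN-RG pups was 0.73 (unadjusted p = 0.00808), and under median centring it was 0.48 (unadjusted p = 0.0509). The calls of both *Cidea* and *Elovl3* in UN-RG-TU against UN-RG-Veh were lost with the 2 groups fitted alone.

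Cell type markers moved in the same comparisons. Of 12 mesothelium markers (the sheet that covers the fat pad), 8 were higher and 0 lower in UN-RG-TU than in UN-RG-Veh pups, and of 15 macrophage markers 0 were higher and 5 lower. Of all clusters, 2.73% were higher and 3.18% lower in that comparison. The mean over the mesothelium markers ran from 7.70 to 9.02 in UN-RG-TU pups and from 6.35 to 7.90 in UN-RG-Veh pups, and that over the macrophage markers from 10.99 to 11.72 in UN-RG-TU pups and from 11.79 to 11.90 in UN-RG-Veh pups. UN-RG-TU 15, with the highest *Cidea*, had the highest mesothelium mean of all arrays (9.02) and the lowest macrophage mean of its group (10.99). Of 13 adipocyte markers 3 were higher and 0 lower there, with array means of 16.43 to 16.56 in UN-RG-TU pups and 16.16 to 16.37 in UN-RG-Veh pups, which do not overlap, and 2 of 10 endothelium markers fell while 0 rose. In UN-RG-Veh against NN-Veh pups, 3 mesothelium markers were lower, 3 macrophage markers higher and 1 adipocyte marker lower, where 2.46% of all clusters were higher and 1.99% lower. In NN-TU against NN-Veh pups 4 macrophage markers were lower and 3 adipocyte markers and 1 endothelium marker higher, where 3.29% of all clusters passed in either direction. In UN-RG-TU against NN-TU pups, where 1.83% passed, 1 mesothelium marker was higher and 1 endothelium marker lower. Single calls of a list are not read as a shift of a cell type. Of 14 skeletal muscle markers, 1 was higher in UN-RG-Veh against NN-Veh pups. In UN-RG-TU pups 1 of the 14 was lower against UN-RG-Veh pups and 1 against NN-TU pups. Of 8 sympathetic nerve markers, 1 was higher in UN-RG-TU against UN-RG-Veh pups, and 0 passed in the other pairwise comparisons. The part of the cell type markers in the *Cidea* and *Elovl3* results and in those of the pathway genes was not tested. In bulk tissue, fewer cells of a type and less RNA per cell cannot be told apart.

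**Figure D2:**
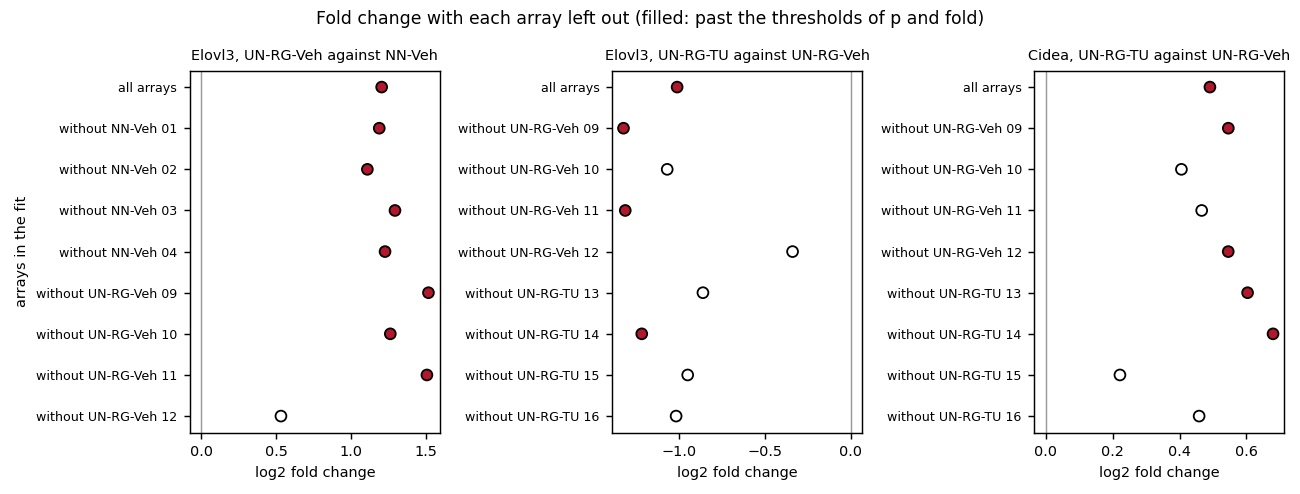
Log2 fold change of *Elovl3* and *Cidea* with all arrays and with each array of the 2 compared groups left out; filled points pass the unadjusted p of 0.05 and the linear fold of 1.3. *Elovl3* falls to 0.53 and −0.34 without UN-RG-Veh 12, and *Cidea* to 0.22 without UN-RG-TU 15.

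*Prdm16*, the identity coregulator, differed little between the groups. Its mean was 6.48 ± 0.24 in UN-RG-TU pups, 6.43 ± 0.33 in UN-RG-Veh pups, 6.47 ± 0.18 in NN-TU pups and 6.51 ± 0.26 in NN-Veh pups, close to the antigenomic median, which it exceeded on 4 of 16 arrays. The pairwise log2 fold changes were −0.076 to 0.041 (SE 0.18), and their intervals together covered linear folds of 0.730 to 1.34.

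The PGC-1 coactivators were the only members above the antigenomic median on every array, with on average 69.4% of the antigenomic controls dimmer than *Ppargc1b* and 77.2% dimmer than *Ppargc1a*. *Ppargc1b* lay above the antigenomic median on all 16 arrays and held a narrow range of 7.26 to 7.93. Its mean was 7.51 ± 0.20 in UN-RG-TU pups, 7.60 ± 0.13 in UN-RG-Veh pups, 7.58 ± 0.27 in NN-TU pups and 7.65 ± 0.10 in NN-Veh pups. The pairwise log2 fold changes were −0.086 to −0.051 (SE 0.14), with 95% intervals of linear folds from 0.764 to 1.19. The 95th percentile of the controls, at 9.64 to 10.49 over the arrays, lay above every *Ppargc1b* level.

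*Ppargc1a* was likewise above the antigenomic median on all 16 arrays, and above the 95th percentile of the controls only on NN-TU 08 (9.87 against 9.82). Its levels spread widely within each group. They were 7.76, 9.46, 8.41 and 7.81 in UN-RG-TU pups, 8.30, 7.41, 7.05 and 8.58 in UN-RG-Veh pups, 8.17, 7.86, 7.65 and 9.87 in NN-TU pups and 7.85, 9.79, 7.44 and 8.03 in NN-Veh pups. In each group the highest array was the one with motile cilia transcripts, at 8.58 to 9.87, against 7.05 to 8.41 on the other 12. No correlation with the cilia markers is given, as the arrays form separate clusters, and the part of the cilia-bearing cells in the *Ppargc1a* level was not tested. The 20 PGC-1 target genes of the mitochondrion had a mean of 12.87 to 13.03 on those 4 arrays, against 12.76 to 13.04 on the other 12. The log2 fold change of *Ppargc1a* was −0.45 in UN-RG-Veh against NN-Veh, 0.53 in UN-RG-TU against UN-RG-Veh, 0.11 in NN-TU against NN-Veh and −0.030 in UN-RG-TU against NN-TU pups (SE 0.56 each), and none passed the thresholds. Without the 4 arrays the first 2 were −0.19 and 0.41 (unadjusted p = 0.520 and 0.170).

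**Figure D3:**
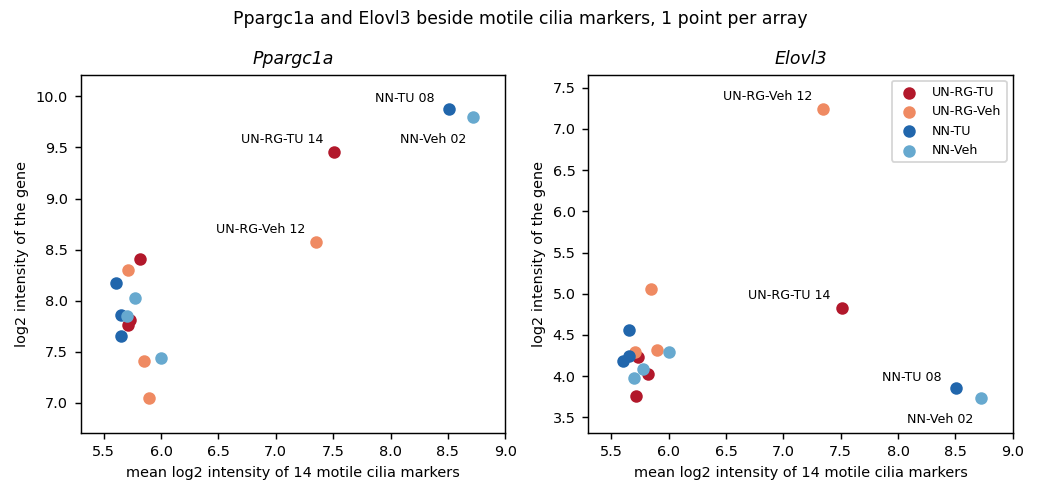
Log2 intensity of *Ppargc1a* (left) and *Elovl3* (right) against the mean log2 intensity of 14 motile cilia markers, 1 point per array, coloured by group. The 4 labelled arrays lie apart at 7.35 to 8.72 on the horizontal axis, where *Ppargc1a* is high on all and *Elovl3* only on UN-RG-Veh 12.

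Set side by side, the 7 members gave few calls at the thresholds of the study (unadjusted p under 0.05 and linear fold of at least 1.3). In UN-RG-Veh against NN-Veh pups 1 was higher (*Elovl3*) and 0 lower, where 4.45% of all 22206 clusters passed (2.46% higher and 1.99% lower) and 4.38% did not overlap between the groups. In UN-RG-TU against UN-RG-Veh pups 1 was higher (*Cidea*) and 1 lower (*Elovl3*), where 5.91% of all clusters passed (2.73% higher and 3.18% lower) and 3.89% did not overlap. None of 7 passed in NN-TU against NN-Veh (background 3.29%), in UN-RG-TU against NN-TU (1.83%), in the interaction (3%) or in UN-RG against NN over both treatments (1.89%), and 1 passed in TU against Veh over both nutrition groups (*Cidea*, background 3.96%, 1.55% higher). None passed an adjusted p of 0.05 in any of the 7 comparisons (0.00901% of all clusters did in UN-RG-Veh against NN-Veh and 0 in the other 6 with limma, counts that changed with the setting as given in the closing section), and the methods' t-test at the same thresholds called 0 in the 4 pairwise ones. The median log2 fold change of the members was −0.051 in UN-RG-Veh against NN-Veh, −0.063 in UN-RG-TU against UN-RG-Veh, −0.038 in NN-TU against NN-Veh and 0.0054 in UN-RG-TU against NN-TU pups, beside 0.0061, 0.0089, −0.0012 and 0.011 for all clusters.

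**Figure D4:**
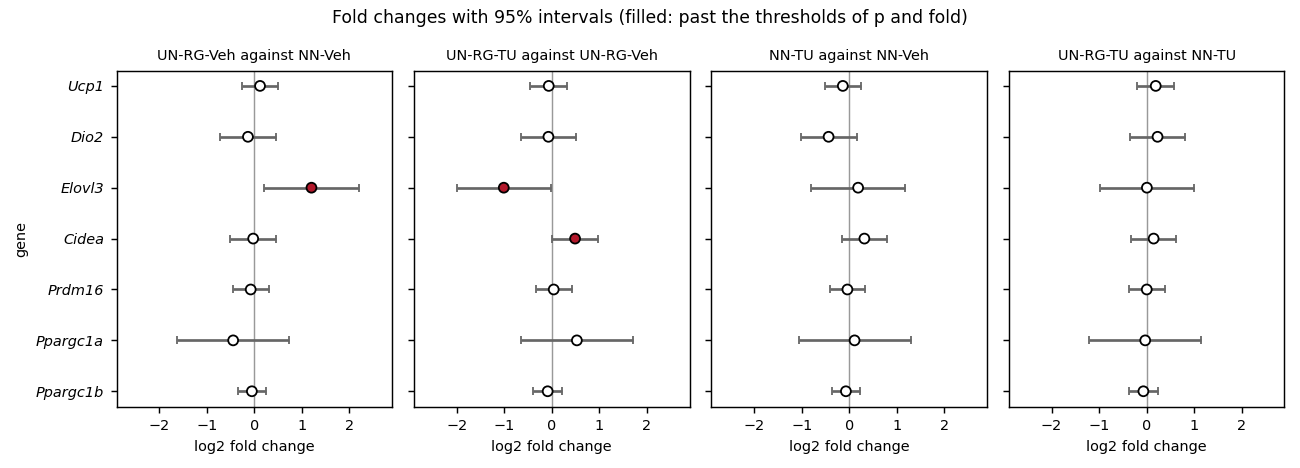
Log2 fold change with its 95% interval (limma, n = 4 arrays per group) for the 7 genes in the 4 pairwise comparisons; filled points pass the thresholds. Of 28 intervals, 3 leave out 0, those of *Elovl3* in the first 2 panels and of *Cidea* in the second.

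No pair of members passed an adjusted p of 0.05 for a correlation across pups. Over 16 arrays, Pearson's r of the 21 pairs was −0.39 to 0.38 and no pair reached an unadjusted p of 0.05 (permutation test, two-sided, lowest adjusted p = 0.993). With group means removed, the highest r was 0.55, for *Prdm16* and *Elovl3* (permutation p = 0.0797, adjusted p = 0.837, Spearman's rho 0.67 with p = 0.0125 and adjusted p = 0.262), and it was 0.53 without the 2 outermost arrays. On the 12 arrays without cilia transcripts, *Cidea* and *Ppargc1a* were at r = 0.59 (permutation p = 0.0465, adjusted p = 0.824) and rho 0.65 (p = 0.0260, adjusted p = 0.547), against r = 0.15 on all 16, and r was 0.43 without the 2 outermost arrays. The genes nearest to each member over the 16 arrays were not thermogenic genes of the lists used here. Those of *Ppargc1a* were *Rab4a* (r = 0.96), *Fzd6* (0.95) and *Slc37a4* (0.95), and on the 12 arrays without cilia transcripts the same genes were at 0.82, 0.64 and 0.67. Those of *Elovl3* were *Tmem245* (0.90), *Slc6a6* (0.89) and *Ugt8a* (0.88), which fell to 0.53, 0.65 and 0.47 on those 12 arrays. The highest r was 0.88 for *Cidea* (*5730455P16Rik*), 0.83 for *Ucp1* (*Spata32*), 0.82 for *Dio2* (*Papln*), 0.82 for *Prdm16* (*Abcg2*) and 0.77 for *Ppargc1b* (*Lgi2*). These are the extremes of a search over all genes and carry no test.

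Other genes of the pathway were read from 7 lists. Among 20 brown and beige markers, the calls were 1 rise in UN-RG-Veh against NN-Veh pups (1 to 3 calls with single arrays left out; 4.45% of all clusters), 2 falls in UN-RG-TU against UN-RG-Veh pups (2 to 4; 5.91%) and 1 fall in NN-TU against NN-Veh pups (0 to 2; 3.29%). *Epsti1*, an interferon-responsive gene that is also used as a beige marker, had levels of 8.40, 8.86, 8.36 and 8.63 in UN-RG-TU pups, 9.32, 9.11, 9.60 and 9.66 in UN-RG-Veh pups, 8.98, 8.82, 8.62 and 8.81 in NN-TU pups and 8.66, 9.00, 8.92 and 8.88 in NN-Veh pups. The UN-RG-Veh arrays stood above all others without overlap. Of all clusters, 4.38% did not overlap in UN-RG-Veh against NN-Veh and 3.89% in UN-RG-TU against UN-RG-Veh pups. The genes named here were picked by p-value in pairwise comparisons of the same arrays. A lack of overlap in them is therefore no separate evidence. The log2 fold change of *Epsti1* was 0.56 in UN-RG-Veh against NN-Veh (SE 0.15, adjusted p = 0.419) and −0.86 in UN-RG-TU against UN-RG-Veh pups (SE 0.15, adjusted p = 0.0723). The second adjusted p was 0.0442, 0.0445 and 0.0288 with dim clusters left out, a robust prior and a term for the cilia arrays. It was 0.0684 under quantile normalization, 0.0744 under median centring and 0.0681 with 1 cluster per gene. Without the 4 cilia arrays it was 0.0950, with the 2 groups alone 0.206 and by the methods' t-test 0.676. *Otop1*, a proton channel found in brown fat, was at 6.90, 8.73, 6.98 and 8.72 in UN-RG-TU pups and 9.08, 9.85, 9.39 and 10.07 in UN-RG-Veh pups, without overlap. Its log2 fold change under TU was −1.76 in UN-RG pups (SE 0.44, adjusted p = 0.190) and −1.21 in NN pups (SE 0.44, adjusted p = 0.853), both past the thresholds, the second not without NN-TU 05 (−0.90). *Otop1* lay near the antigenomic median on UN-RG-TU 13 (6.90 against 6.75) and 15 (6.98 against 6.59). It lay below that median on NN-TU 05 (6.60 against 6.68). Every *Otop1* and *Epsti1* level was below the 95th percentile of the controls on its array.

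Of 17 adrenergic and cAMP genes, 1 passed in UN-RG-TU against UN-RG-Veh pups (5.91% of all clusters) and 1 in NN-TU against NN-Veh pups (3.29%). *Rgs2*, which damps G protein signalling, was lower in the first (−1.01, SE 0.39, unadjusted p = 0.0188, adjusted p = 0.494). The call was lost without UN-RG-TU 15 (−0.68), UN-RG-Veh 09 (−0.90), UN-RG-Veh 12 (−0.89) or UN-RG-TU 13 (−0.84), and by the methods' t-test (unadjusted p = 0.0825). *Pde3b*, a phosphodiesterase that degrades cAMP, was higher in the second (0.45, SE 0.16, unadjusted p = 0.0121, adjusted p = 0.843), and 0.39 (unadjusted p = 0.0655) without the 4 cilia arrays. Its fold change in UN-RG-TU against UN-RG-Veh pups was 0.35 (unadjusted p = 0.0404), under the fold threshold, with an interaction of −0.095 (unadjusted p = 0.678). Over both nutrition groups TU gave 0.40 (unadjusted p = 0.00250, adjusted p = 0.158), past the thresholds. Of 8 genes of thyroid hormone action, 1 passed in UN-RG-Veh against NN-Veh pups (4.45% of all clusters) and 1 in UN-RG-TU against UN-RG-Veh pups (5.91%). Both calls were of *Thrsp*, a hormone-responsive gene of lipid synthesis. It was lower in the first (−0.85, SE 0.30, adjusted p = 0.690) and higher in the second (0.99, SE 0.30, adjusted p = 0.298). Without the 4 cilia arrays the first was −0.61 (unadjusted p = 0.0602). Of 25 coregulators of the thermogenic program, 0 passed the thresholds in any pairwise comparison (1 or 2 had an unadjusted p under 0.05 in each), but with single arrays left out up to 3 passed them.

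Of 17 secreted signals, 3 were higher and 0 lower in UN-RG-TU against UN-RG-Veh pups, where 2.73% of all clusters were higher and 3.18% lower. *Nrg4*, a hormone of brown fat that acts on the liver, was at 13.47, 13.33, 13.59 and 13.48 in UN-RG-TU pups and 12.99, 12.68, 12.95 and 12.87 in UN-RG-Veh pups. These did not overlap, as in 3.89% of all clusters, and the log2 fold change was 0.60 (SE 0.17, adjusted p = 0.264). *Bmp4*, a growth factor that commits cells to the fat lineage, was at 0.82 (SE 0.26, adjusted p = 0.346). Its groups overlapped, and its call was lost by the methods' t-test (unadjusted p = 0.0556). The third was *Penk*, the precursor of enkephalins, at 1.14 (SE 0.38), and it was lower in UN-RG-Veh against NN-Veh pups (−0.84). *Fgf21*, a hormone of fat and liver, was higher there (0.54), at a mean level of 5.68 that lies below the antigenomic median of all arrays. In that comparison 1 of the 17 was thus higher and 1 lower, where 2.46% of all clusters were higher and 1.99% lower. *Penk* and *Fgf21* are named to complete the counts, after their values were seen. Of the 20 PGC-1 targets, 1 was higher and 1 lower in UN-RG-TU against UN-RG-Veh pups, beside 2.73% and 3.18% of all clusters. *Vdac1*, a channel of the outer mitochondrial membrane, was higher (0.49, SE 0.14), and at 0.33, under the fold threshold, without UN-RG-TU 15. *Sod2*, the mitochondrial superoxide dismutase, was lower (−0.47, SE 0.14, adjusted p = 0.286 for both genes). Of 15 genes of futile cycles, 0 passed in that comparison, where 5.91% of all clusters did. The calls in the other pairwise comparisons were *Ryr1* (0.39 in UN-RG-Veh against NN-Veh, where 4.45% passed) and *Ryr2* (0.57 in NN-TU against NN-Veh, where 3.29% passed). Both had a mean level below the antigenomic medians (3.6 and 6.20), and both calls were lost when single arrays were left out. The inflammatory cytokine *Il6* was the 1 call among the 17 secreted signals in each of 2 comparisons. Its mean level was 5.24, and at 4.54 to 6.12 it lay below the antigenomic median on all 16 arrays. It was lower in NN-TU against NN-Veh pups (−0.82, SE 0.25), where 3.29% of all clusters passed. In UN-RG-TU against NN-TU pups, where 1.83% passed, it was higher (0.76, SE 0.25), and 0.57 (unadjusted p = 0.0607) without the 4 cilia arrays. There 1 of the 20 PGC-1 targets passed, *Cpt2*, of mitochondrial fatty acid import, which was lower (−0.38, SE 0.18). Its call was lost without any of 5 arrays in turn, or without the 4 cilia arrays.

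**Figure D5:**
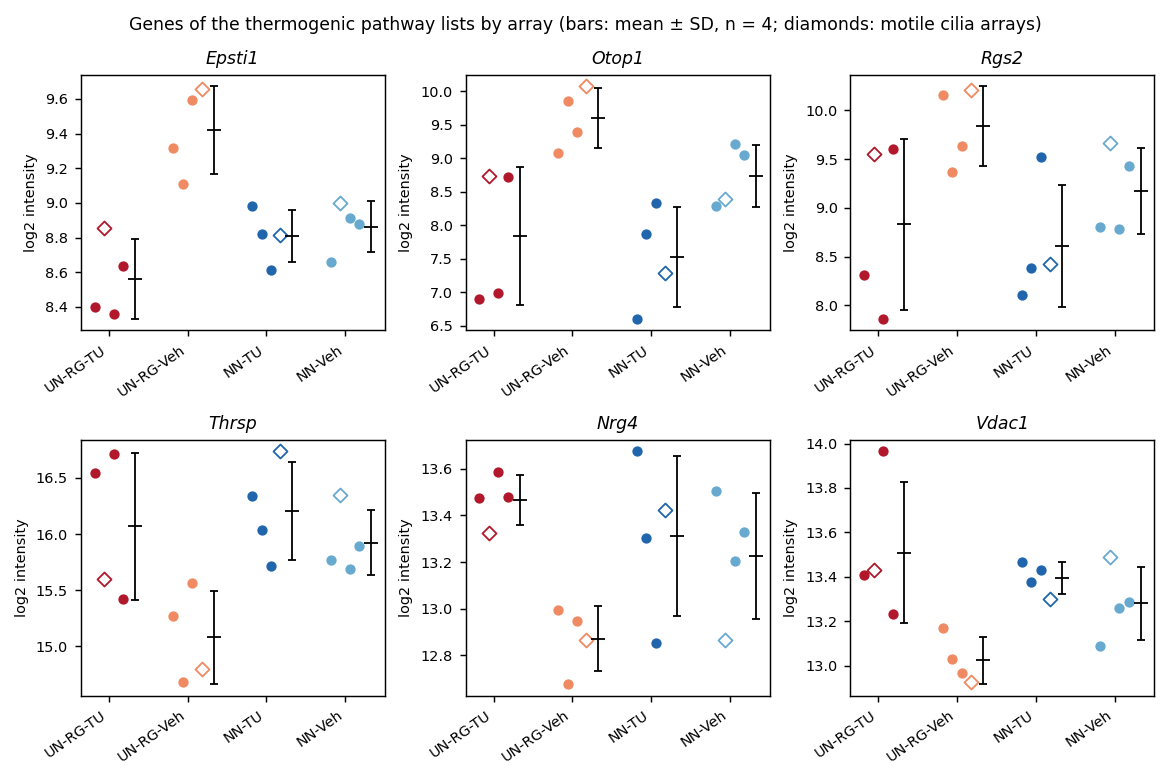
Log2 intensity of 6 genes of the pathway lists on the 16 arrays by group, with mean and SD (n = 4); each panel has its own vertical axis. In *Epsti1*, *Otop1*, *Nrg4* and *Vdac1* the UN-RG-TU and UN-RG-Veh arrays do not overlap, and in *Rgs2* and *Thrsp* they do. Of all clusters 3.89% do not overlap there, and the genes shown were picked by p-value in pairwise comparisons of these arrays.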

How the data were processed

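RNA of the epididymal fat of 16 pups was measured on Clariom S mouse arrays. The authors used the WT PLUS labelling kit and, for the scans, the Transcriptome Analysis Console and Expression Console programs, and the normalization method is not given in the sources used here. The deposited values are intensities, normalized by the authors and on a linear scale, 1 per transcript cluster and array, and log2 was taken of them. Of 22520 lines, 314 control probe sets were left out, which leaves 22206 clusters. Groups came from the sample labels. For NN-TU pups the source field reads NN-RG-TU, while the title and the maternal diet are those of NN pups.

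Group means were fitted over all 16 arrays with limma 3.58.1 (lmFit, eBayes) in R 4.3.3, with Benjamini-Hochberg adjustment across the 22206 clusters, separately in each of 7 comparisons. Calls used the thresholds of the study, namely a linear fold change of 1.3 or more with an unadjusted p under 0.05. All p-values and intervals of fold changes come from this fit unless another setting is named. Precision is limited by the number of arrays, and p-values measure the spread between 4 pups a group, some of which may be litter mates. A gene with several clusters was represented by the brightest. Correlations used 100000 permutations, two-sided, adjusted over 21 pairs. The steps were tested on simulated data.

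The members, pathway lists and marker lists were chosen with earlier results of these data known. Named are all members, up to 3 called genes of each pathway list with the smallest p, and the 3 genes nearest to each member by Pearson's r. Probe names came from the platform annotation, and promoter windows from RefSeq (GRCm38.p6). The alternatives were quantile normalization, centring on array medians, a filter on dim clusters, a variance trend with a robust prior, 1 cluster per gene, the 2 compared groups alone, the methods' t-test, the 4 arrays with motile cilia transcripts left out, and each array left out in turn. A term for those 4 arrays, and correlations without them, were added after seeing the data. Python 3.11.15 and matplotlib 3.10.9 made the figures.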

Additional observations from a re-analysis of the deposited data

Results flagged for a closer look

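*Prdm16* in NN-Veh pups had 1 array, NN-Veh 04, far from the other 3, at 6.90 with the nearest at 6.42 on the log2 scale. This was 1 of 28 sets of 4 arrays examined, and chance alone would mark about 1 in 20.

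The TU effect differed between UN-RG and NN pups at the thresholds of the study for 3 of 20 genes tested by the interaction in limma, where 3% of all clusters passed. Of these 20, 13 had been named for a call in a pairwise comparison that shares arrays with the interaction, so that the count is no measure of how often the effect differs. The interaction was −0.80 for *Epsti1* (SE 0.21, unadjusted p = 0.00146), 0.51 for *Nrg4* (SE 0.23, unadjusted p = 0.0459) and 0.81 for *Il6* (SE 0.36, unadjusted p = 0.0369). The adjusted p was 0.9999 for each. That of *Epsti1* passed under each alternative run, while that of *Nrg4* was lost under both other scalings (0.48 and 0.47) and that of *Il6* without the 4 arrays with motile cilia transcripts (0.57). Leaving out single arrays gave −0.91 to −0.72 for *Epsti1*, 0.35 to 0.63 for *Nrg4* and 0.59 to 0.96 for *Il6*, and the calls of *Nrg4* and *Il6* were lost without several of them. *Il6* lay below the antigenomic median on all 16 arrays. Its NN-TU arrays, at 4.54 to 4.72, enter this interaction and both of its pairwise calls.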

How the results depend on the processing

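Of 413 fold changes of single genes recomputed under alternatives other than leaving out 1 array, 377 kept their direction and their side of the thresholds. Most of these alternatives, such as the dim filter and the t-test, leave the fold change itself as it was. Its direction could not change there. With single arrays left out, 347 fold changes kept both, 36 changed direction, 54 lost a call and 3 gained one. The counts of members called also moved. In UN-RG-Veh against NN-Veh pups the 1 call became 0 with the dim clusters left out, without the 4 arrays with motile cilia transcripts, with the 2 groups alone and by the methods' t-test. In UN-RG-TU against UN-RG-Veh pups the 2 calls became 1 under quantile normalization and the trend with a robust prior (*Elovl3* lost) and under median centring (*Cidea* lost), and 0 with the dim filter, the 2 groups alone and the t-test. In the interaction the count was 1 without the 4 cilia arrays, against 0. Over both nutrition groups the 1 call of TU became 0 with the dim filter. That filter kept 12017 clusters and 2 of 7 members, so that the other members could not be called. With single arrays left out, the counts were 0 to 1, 0 to 2, 0 to 1 and 0 to 0 in UN-RG-Veh against NN-Veh, UN-RG-TU against UN-RG-Veh, NN-TU against NN-Veh and UN-RG-TU against NN-TU, and 0 to 1 in the interaction, for TU over both nutrition groups and for UN-RG over both treatments.

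Small fold changes of members changed sign, each on a value that had not passed. Under median centring *Cidea* was at 0.0067 in UN-RG-Veh against NN-Veh, and in UN-RG-TU against NN-TU *Prdm16* was at −0.0075 and *Elovl3* at −0.0047. Quantile normalization gave −0.040 and −0.031 for the same 2 genes there. Without the 4 cilia arrays, *Ppargc1b* was at 0.015 and *Dio2* at 0.15 in UN-RG-TU against UN-RG-Veh, and *Ppargc1a* at 0.099, *Prdm16* at −0.073 and *Elovl3* at −0.32 in UN-RG-TU against NN-TU. The cause was not tested. With single arrays left out, the ranges that crossed 0 were as follows. In UN-RG-Veh against NN-Veh they were −0.055 to 0.27 (*Ucp1*), −0.079 to 0.061 (*Cidea*), −0.73 to 0.060 (*Ppargc1a*), −0.27 to 0.070 (*Dio2*) and −0.17 to 0.063 (*Prdm16*). In UN-RG-TU against UN-RG-Veh they were −0.14 to 0.052 (*Ucp1*), −0.27 to 0.068 (*Dio2*) and −0.098 to 0.15 (*Prdm16*). In NN-TU against NN-Veh they were −0.31 to 0.012 (*Ucp1*), −0.38 to 0.62 (*Ppargc1a*), −0.19 to 0.037 (*Ppargc1b*) and −0.10 to 0.093 (*Prdm16*). In UN-RG-TU against NN-TU they were −0.12 to 0.34 (*Cidea*), −0.40 to 0.46 (*Ppargc1a*), −0.17 to 0.049 (*Ppargc1b*), −0.070 to 0.11 (*Prdm16*) and −0.20 to 0.16 (*Elovl3*).

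Counts over all clusters, which give the background, also moved. In UN-RG-Veh against NN-Veh 547 were higher and 441 lower, and 651 and 332 with median centring. In NN-TU against NN-Veh 301 were higher and 429 lower, and 390 and 338 with centring, and in the interaction 302 and 365, and 194 and 446 with centring. In UN-RG-TU against NN-TU 257 and 150 passed, 208 and 211 under quantile normalization and 601 and 307 without the 4 cilia arrays. Clusters past an adjusted p of 0.05 in UN-RG-TU against UN-RG-Veh were 0 with limma as reported, 29 with the dim filter, 37 with the robust prior and 69 with the cilia term, and those of TU over both nutrition groups 0, 145, 3 and 122. No member was among those of UN-RG-TU against UN-RG-Veh. No paired analysis was made, because the labels do not say which pups shared a dam. Signal over background limits *Ucp1*, *Dio2*, *Elovl3*, *Cidea* and *Prdm16*, whose levels lay at or below the antigenomic median on most arrays.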
